A study of Homo sapiens with 6 samples.

Results

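The collagen genes were taken as every row of the deposited count table whose symbol reads COL, a number, A and a number. This rule picked 44 of 36517 genes by name alone, without use of any measured value, and left out pseudogenes and antisense genes of the same loci. The choice of this family was made with earlier results of these data known. The cells were MDA-MB-453, a human breast cancer line of luminal type. In the control group (n = 3) they had been transduced with shNC, a hairpin without an intended target, and in the shtRF group (n = 3) with a lentiviral hairpin that targets tRF-1-Ser, a small RNA released from the 3′ end of a serine tRNA precursor. Both groups had therefore been through lentiviral transduction, and RNA was taken on day 3. The study describes the cells as stable and the samples as biological replicates, but whether replicates came from separate transductions or cultures is not stated. The p-values therefore weigh the group difference against the spread between these samples, which may be in part technical. The small RNA has no row among the gene counts, so its knockdown was not checked here.

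Collagens are extracellular proteins in which chains made of Gly-X-Y repeats wind into a triple helix, and many types need chains from different genes in the same trimer. Connective tissue is built largely of fibrillar collagens made by fibroblasts, whereas epithelial cells are best known for the type IV collagens of the basement membrane and for type VII collagen, which anchors that membrane to the tissue beneath. The compared question was which of these chains are transcribed in epithelial tumour cells and which of them differ after knockdown of tRF-1-Ser.

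The 6 libraries held 63541413 to 78917459 counts, and the most abundant gene held at most 1.55% of them. The label was checked against marker genes: 8 of 9 epithelial genes, among them EPCAM, KRT8 and KRT19, had a mean of at least 1 RPKM (reads per kilobase of exon, scaled to library size), and so had the luminal markers ERBB2, FOXA1 and SPDEF. The exception was MUC1. The summed epithelial markers ran from 4033 to 4173 CPM (counts scaled to library size with the TMM method) in control. In shtRF they ran from 5352 to 5910 CPM. KRT8 made up most of this rise, with a mean of 1557 CPM in control and 2691 CPM in shtRF. In the edgeR test 4 of the 9 genes were higher (KRT8, KRT18, KRT7 and CDH1). CLDN3 was lower (log2 fold change -0.55, edgeR adjusted p = 2.65e-06). EPCAM, KRT19, CLDN4 and MUC1 were neither (edgeR adjusted p from 0.0650 for EPCAM to 0.590 for MUC1). Fibroblast markers were nearly absent. Of 10 listed genes, LUM had no row in the table, DCN had at most 2 counts in any library and THY1 at most 2, and FBLN1 alone accounted for most of a summed level of 8.76 to 9.92 CPM in control and 7.86 to 8.60 CPM in shtRF. The 5 endothelial markers together stayed at or below 0.437 CPM, and no gene of the 5 leukocyte markers other than CD68 exceeded 8 counts. CD68, a lysosomal protein of macrophages, had 315 to 566 counts and was higher in shtRF by 0.57 on the log2 scale (edgeR adjusted p = 0.00143), and the leukocyte sum was 4.30 to 5.32 CPM in control and 5.82 to 8.19 CPM in shtRF. The 7 basal and myoepithelial markers summed to 10.97 to 12.9 CPM in control and 6.53 to 7.53 CPM in shtRF, with MYLK and TP63 lower in shtRF. The part of these shifts in the collagen results was not tested.

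A gene was called expressed when it reached 1 RPKM in all 3 libraries of at least 1 group. By this measure 7 of the 44 collagen genes were expressed: COL4A5, COL7A1, COL1A1, COL4A6, COL11A2, COL9A2 and COL16A1. Another 16 were present in trace amounts, below that level but with enough counts to be tested, and the remaining 21 were too low to test. Ordered per kilobase in control, COL4A5 stood first at 12.5 ± 0.655 RPKM (SD, n = 3), followed by COL7A1 at 4.75 ± 1.15, COL1A1 at 3.34 ± 0.306, COL4A6 at 2.79 ± 0.204, COL11A2 at 1.85 ± 0.247 and COL9A2 at 1.23 ± 0.0589 RPKM. No library of any of these 6 genes reached into the range of its neighbour in that order. Below them COL16A1 (0.815 RPKM), COL9A3 (0.785), COL5A2 (0.759) and COL12A1 (0.660) lay within overlapping ranges. COL4A5 was above 82.6% of all tested genes per kilobase in control, while COL16A1 was above only 30.2% of them. In shtRF the order was COL4A5 at 6.12 ± 0.378, COL7A1 at 4.58 ± 0.279, COL1A1 at 2.09 ± 0.0730, COL11A2 at 1.94 ± 0.0901, COL9A2 at 1.64 ± 0.105 and COL16A1 at 1.49 ± 0.0349 RPKM, again without overlap between neighbours. COL4A6, at 0.770 ± 0.0372 RPKM, was below the level called expressed in shtRF. At the border of that level, COL9A3 reached 1.18 RPKM in shtRF replicate 2 but 0.769 and 0.857 RPKM in replicates 1 and 3.

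**Figure D1:**
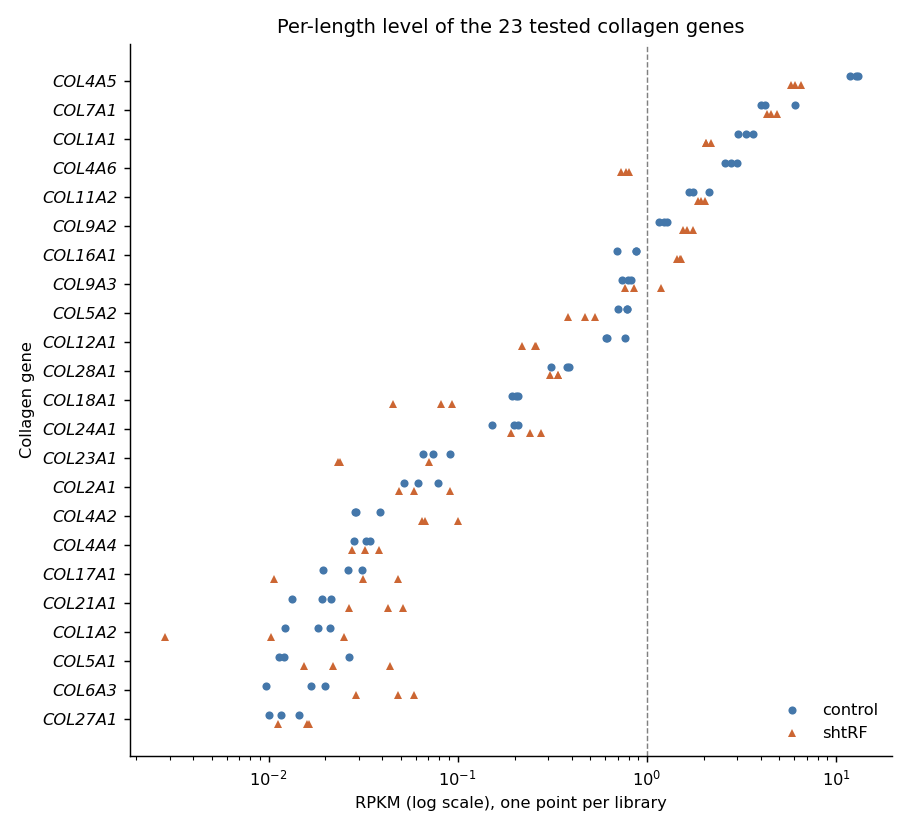
RPKM of the 23 tested collagen genes on a log axis, with 1 point per library (circles, control; triangles, shtRF) and genes ordered by their control mean. The dashed line marks 1 RPKM; COL4A5 lies to its right in every library and furthest right of all, while COL4A6 lies right of it in control and left of it in shtRF.

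For several collagen types a partner chain was nearly absent. COL1A1, which encodes the major chain of type I collagen, had 2288, 2416 and 2350 counts in control, whereas its partner COL1A2 had 15, 10 and 16, so that COL1A2 stood at 0.00514 ± 0.00130 of COL1A1 per kilobase. COL5A2 had 359, 373 and 444 counts in control, against 19, 10 and 10 for COL5A1, which encodes the usual partner chain of type V collagen. COL11A2 had 833 to 929 counts in control, while COL11A1 had at most 6 in any library. COL9A2 and COL9A3 were both present at 254 to 482 counts, but COL9A1, the third gene of type IX collagen, reached 12 counts in only 1 library. Of the type VI genes, COL6A3 had up to 80 counts, and neither COL6A1 nor COL6A2 exceeded 9. COL3A1, a fibrillar collagen typical of fibroblasts, had at most 4 counts.

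The type IV genes lie as head-to-head pairs on 3 chromosomes, and the promoter windows of each pair overlap. COL4A5 (chromosome X, 108439844 to 108697545, plus strand) and COL4A6 (chromosome X, 108155607 to 108439497, minus strand) are the pair that these cells transcribed. On chromosome 13, COL4A1 had at most 8 counts and COL4A2 at most 61, and on chromosome 2, COL4A3 had at most 14 and COL4A4 at most 27. Coordinates are those of the count table (GRCh38). The RefSeq promoter windows (GRCh38.p14, 250 bases before to 50 after the start) of the X pair and the chromosome 13 pair are given because these pairs share an arrangement but not a level of transcription. Capitals mark the bases that both windows of a pair cover, each read on its own strand.
COL4A6 (chrX:108439409-108439708, minus strand): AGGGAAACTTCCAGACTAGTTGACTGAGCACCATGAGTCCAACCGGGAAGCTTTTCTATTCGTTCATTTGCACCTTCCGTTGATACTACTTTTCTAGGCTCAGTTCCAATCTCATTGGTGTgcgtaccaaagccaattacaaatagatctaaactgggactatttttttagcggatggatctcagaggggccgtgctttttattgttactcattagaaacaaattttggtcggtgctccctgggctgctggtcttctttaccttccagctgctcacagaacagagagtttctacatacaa
COL4A5 (chrX:108439588-108439887, plus strand): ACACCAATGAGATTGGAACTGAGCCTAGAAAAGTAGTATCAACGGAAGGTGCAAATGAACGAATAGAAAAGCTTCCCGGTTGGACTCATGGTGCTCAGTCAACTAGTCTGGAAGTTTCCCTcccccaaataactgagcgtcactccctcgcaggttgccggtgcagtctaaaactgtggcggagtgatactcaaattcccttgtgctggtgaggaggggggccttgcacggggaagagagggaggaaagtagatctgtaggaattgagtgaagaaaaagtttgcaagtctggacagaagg
COL4A1 (chr13:110307108-110307407, minus strand): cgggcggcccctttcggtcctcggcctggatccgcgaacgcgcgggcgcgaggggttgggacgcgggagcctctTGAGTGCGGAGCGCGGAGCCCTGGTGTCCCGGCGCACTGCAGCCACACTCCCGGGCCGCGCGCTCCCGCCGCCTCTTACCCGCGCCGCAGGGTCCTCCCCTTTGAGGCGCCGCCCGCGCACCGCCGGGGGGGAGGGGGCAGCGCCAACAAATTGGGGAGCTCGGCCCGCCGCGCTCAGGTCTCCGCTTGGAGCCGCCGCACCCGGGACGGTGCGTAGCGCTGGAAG
COL4A2 (chr13:110307034-110307333, plus strand): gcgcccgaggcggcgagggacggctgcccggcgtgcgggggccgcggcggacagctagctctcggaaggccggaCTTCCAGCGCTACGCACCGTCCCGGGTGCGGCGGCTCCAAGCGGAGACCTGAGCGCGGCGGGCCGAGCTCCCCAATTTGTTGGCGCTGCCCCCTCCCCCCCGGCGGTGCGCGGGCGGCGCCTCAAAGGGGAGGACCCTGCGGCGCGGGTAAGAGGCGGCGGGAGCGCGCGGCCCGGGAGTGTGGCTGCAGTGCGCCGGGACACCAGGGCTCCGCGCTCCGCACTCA

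The starts of COL4A6 and COL4A5 lie 380 bases apart and their windows share 121 bases. COL4A6 has a further RefSeq start at position 108438422, inside the gene, which gene counts do not separate from the first. The starts on chromosome 13 are 127 bases apart with 226 bases shared, and the chromosome 2 pair is 419 bases apart with 82 shared. The pairs also differed in base composition. The shared stretch was 44.6% G and C on chromosome X, 76.5% on chromosome 13 and 67.1% on chromosome 2, against a median of 58.7% over the windows of all RefSeq promoters. The letters CCAAT, searched on both strands, occurred 3 times in the COL4A6 window and 2 times in that of COL4A5, with 2 of them in the bases the windows share. They occur in 34.6% of the 35116 windows in the table. Neither TATAAA (11.5% of all windows) nor GGGCGG (45.0%) was found in these 2 windows on either strand. On chromosome 13 the windows of COL4A1 and COL4A2 held CCAAT 1 time each, also within the shared bases. They held GGGCGG 2 and 1 times and no TATAAA. On chromosome 2 neither window held CCAAT or TATAAA, and GGGCGG occurred 2 times in that of COL4A3 only. Promoter windows were matched by symbol for 32 of the 44 genes.

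The largest differences by read number between shtRF and control were those of the X pair. COL4A5, which contributes a chain to type IV collagen networks of specialised basement membranes, had 112, 109 and 102 CPM in control and 56.5, 52.5 and 54.4 CPM in shtRF. All shtRF libraries lay near 0.507 of the control level, well outside the control range. The log2 fold change was -0.98 ± 0.06 (SE, edgeR adjusted p = 6.01e-12). COL4A6, whose product joins that of COL4A5 in basement membranes of smooth muscle and epithelia, had 25.4, 27.1 and 23.7 CPM in control and 7.10, 7.08 and 7.68 CPM in shtRF. Its groups were likewise far apart. The log2 fold change of COL4A6 was -1.80 ± 0.08 (SE, edgeR adjusted p = 1.27e-13). The COL4A6 level per kilobase was 0.222 ± 0.0104 of that of COL4A5 in control (SD, n = 3) and 0.126 ± 0.00727 in shtRF, without overlap between the groups. An exact two-sided permutation test of this ratio gave p = 0.1, the smallest that 3 against 3 libraries allow, or 0.2 after Benjamini-Hochberg adjustment over the 4 ratios tested. In bulk RNA, fewer cells that transcribe a gene and fewer transcripts per cell cannot be told apart.

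**Figure D2:**
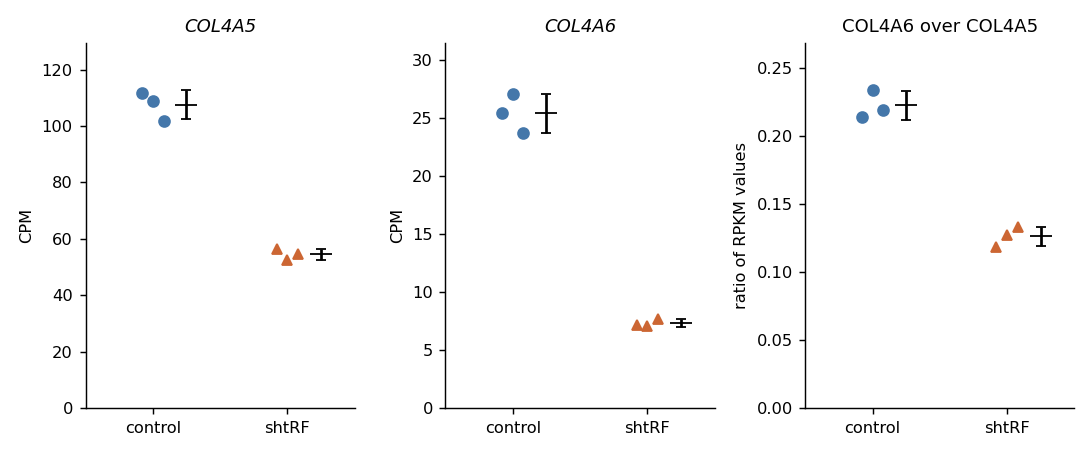
CPM of COL4A5 and COL4A6 and the ratio of their RPKM values, with 1 point per library and the mean ± SD of 3 libraries beside it; all axes start at 0. Both genes were lower in every shtRF library, and the mean ratio was 0.222 in control and 0.126 in shtRF.

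Across the family, 23 genes passed the filter on low counts and were tested. Of these, 4 rose and 6 fell past an adjusted p of 0.05. That is 17.4% and 26.1% of the tested members, where 20.6% and 18.9% of all 19628 tested genes rose and fell. The share called in either direction was 43.5% against 39.5%, and groups did not overlap for 11 of the 23 genes, or 47.8%, against 48.7% of all tested genes. The share in either direction and the share without overlap were thus near the background. The median log2 fold change was 0.10 over the tested collagen genes and -0.0025 over all tested genes. A change of over 2-fold beside the adjusted p was seen for 2 of the 23 collagen genes that were higher and 3 of the 23 that were lower. Over all tested genes, 2.66% were higher and 3.11% lower by this measure. The member shares were above these values but rest on few genes. The higher ones were COL6A3 and COL4A2, and the lower ones COL4A6, COL12A1 and COL18A1. All but COL4A6 were at trace level, and neither COL6A3 nor COL4A2 was called in a limma fit of log2(RPKM + 1).

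**Figure D3:**
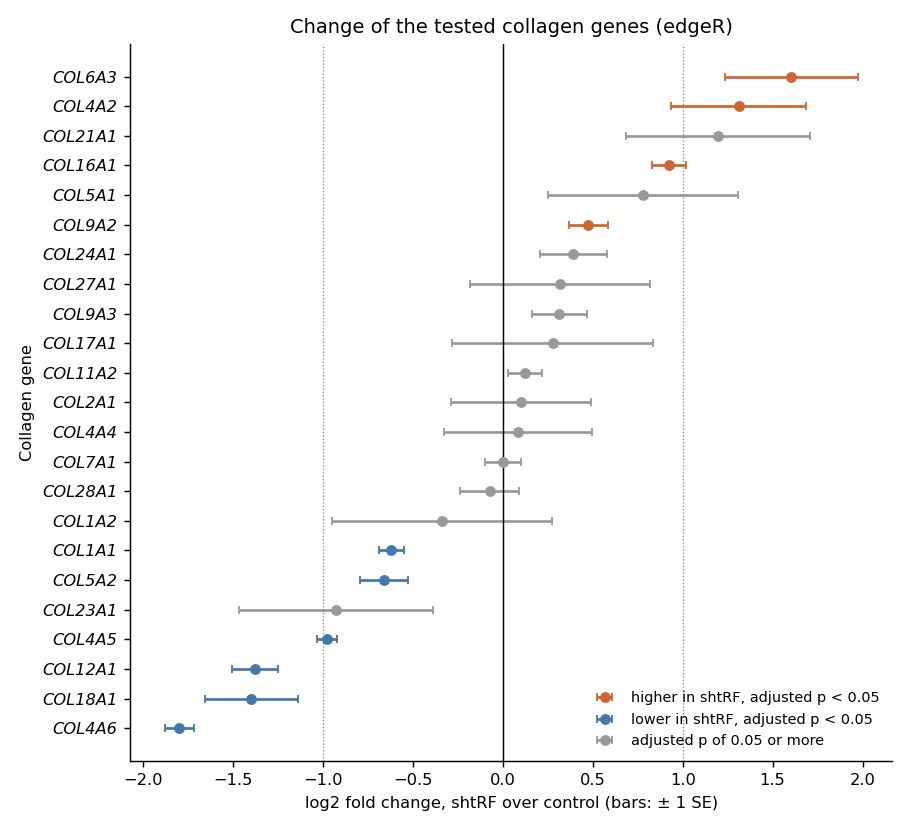
Log2 fold change of shtRF over control for the 23 tested collagen genes (points) with ± 1 SE (bars), coloured by call, with dotted lines at a 2-fold change. COL4A6 stands lowest at -1.80 and COL6A3 highest at 1.60, and genes of low count such as COL5A1 and COL21A1 have wide bars that were not called.

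Among fibrillar collagens, 2 of 8 tested genes fell and none rose, a count near the 18.9% of all tested genes that fell. COL1A1 (chromosome 17, 50183289 to 50201632) had 35.2, 32.0 and 29.4 CPM in control and 21.2, 21.0 and 20.5 CPM in shtRF. The groups did not overlap, and the log2 fold change was -0.62 ± 0.07 (SE, edgeR adjusted p = 2.88e-07). COL5A2, whose chain enters heterotypic fibrils with type I collagen, had 5.52, 4.94 and 5.56 CPM in control against 3.77, 3.49 and 2.82 CPM in shtRF (log2 fold change -0.66 ± 0.13, SE, edgeR adjusted p = 3.55e-04). The ratio of COL5A2 to COL1A1 per kilobase was 0.229 ± 0.0264 in control and 0.220 ± 0.0288 in shtRF (exact permutation p = 0.8, adjusted over 4 ratios 0.8). COL11A2, a minor fibril component best known from cartilage, had 14.1, 11.03 and 11.6 CPM in control and 12.4, 13.6 and 14.1 CPM in shtRF. Its groups overlapped and no change passed the threshold (log2 fold change 0.12 ± 0.09, SE, edgeR adjusted p = 0.325). COL24A1 was at 1.75 and 2.30 CPM (log2 fold change 0.39 ± 0.19, SE, edgeR adjusted p = 0.105). COL1A2, COL2A1, COL5A1 and COL27A1 had at most 38 counts in any library and were not called.

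COL7A1 (chromosome 3, 48564073 to 48595267), the gene of the anchoring fibril collagen, was the second most abundant per kilobase. It had 66.3, 45.4 and 43.9 CPM in control and 53.7, 49.9 and 51.8 CPM in shtRF. Control replicate 1 stood above all others, and the shtRF libraries lay between it and the remaining controls. The log2 fold change was 0.00080 ± 0.10 (SE, edgeR adjusted p = 0.997). Control replicate 1 decided this value: without it COL7A1 was higher in shtRF by 0.21 on the log2 scale (edgeR adjusted p = 0.0142).

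FACIT collagens, which sit on the surface of fibrils and have interrupted helices, changed in both directions. COL12A1 (chromosome 6, 75084326 to 75206051), a fibril-associated collagen of dense connective tissue, had 7.41, 9.28 and 7.58 CPM in control and 2.72, 3.32 and 3.31 CPM in shtRF. Even the lowest control library lay far above the highest shtRF library. The log2 fold change was -1.38 ± 0.13 (SE, edgeR adjusted p = 1.21e-08). Relative to COL1A1 per kilobase, COL12A1 stood at 0.199 ± 0.0314 in control and 0.117 ± 0.0142 in shtRF (exact permutation p = 0.1, adjusted over 4 ratios 0.2). COL16A1 (chromosome 1, 31652247 to 31704319) rose, from 8.01, 7.88 and 6.36 CPM in control to 13.8, 14.0 and 14.4 CPM in shtRF. The fitted difference was 0.92 ± 0.10 on the log2 scale (SE, edgeR adjusted p = 7.24e-08), and it was the collagen gene with the largest gain in reads. Exons of a gene on the opposite strand cover 1.26% of the COL16A1 exons. COL9A2, which encodes a chain of the cartilage collagen type IX, had 4.75, 5.19 and 5.06 CPM in control and 6.38, 7.02 and 7.47 CPM in shtRF (log2 fold change 0.47 ± 0.11, SE, edgeR adjusted p = 0.00138). Its partner COL9A3 had 3.90, 3.75 and 3.52 CPM in control and 3.69, 5.94 and 4.24 CPM in shtRF. These groups overlapped, and the log2 fold change of 0.31 ± 0.15 (SE) was not past the threshold (edgeR adjusted p = 0.112), although it was without shtRF replicate 1 (0.45, edgeR adjusted p = 0.0309). The ratio of COL9A3 to COL9A2 was 0.641 ± 0.0573 in control and 0.571 ± 0.136 in shtRF (exact permutation p = 0.4, adjusted over 4 ratios 0.533). COL21A1 had 6, 10 and 12 counts in control and 21, 26 and 12 in shtRF, which did not pass either (edgeR adjusted p = 0.0691).

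Of the other called genes, all were at trace level. COL18A1, a multiplexin of basement membranes that gives rise to endostatin, had 113, 128 and 131 counts in control and 27, 57 and 44 in shtRF (log2 fold change -1.40 ± 0.26, SE, edgeR adjusted p = 1.62e-04). Every shtRF library was far below the lowest control. However, exons of SLC19A1 on the opposite strand cover 16.4% of the COL18A1 exons. SLC19A1 itself fell by 0.79 on the log2 scale from 6.18 CPM, and the part of these shared bases in the COL18A1 counts was not tested. COL6A3, a chain of beaded filaments, had 25, 14 and 26 counts in control and 80, 68 and 36 in shtRF (log2 fold change 1.60 ± 0.37, SE, edgeR adjusted p = 0.00134). COL4A2 had 16, 25 and 20 counts in control and 61, 42 and 36 in shtRF (log2 fold change 1.31 ± 0.37, SE, edgeR adjusted p = 0.00756). COL4A2 was thus higher where the X pair was lower, at a mean of 0.0323 RPKM in control and 0.0777 RPKM in shtRF. Without shtRF replicate 1 the call for COL4A2 was lost (1.10, edgeR adjusted p = 0.0582). COL4A4, COL17A1, COL23A1 and COL28A1 were tested and not called. COL17A1, a transmembrane collagen of hemidesmosomes in basal epithelial cells, had only 5 to 22 counts.

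The 21 genes below the filter were COL3A1, COL5A3, COL11A1, COL4A1, COL4A3, COL6A1, COL6A2, COL6A5, COL6A6, COL8A1, COL8A2, COL10A1, COL9A1, COL14A1, COL19A1, COL20A1, COL22A1, COL13A1, COL25A1, COL15A1 and COL26A1. The highest count in any library ran from 1 for COL26A1 to 17 for COL13A1. All short chain network collagens and all beaded filament genes other than COL6A3 were in this set. With no filter beyond 1 count all 44 collagen genes were tested, and again 4 were higher and 6 lower. In that fit 3801 and 3719 of 36517 genes were higher and lower. At such counts a small change in these genes may have gone undetected.

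Summed over the 44 genes, collagen transcripts made up 293, 265 and 248 CPM in control and 192, 188 and 191 CPM in shtRF. The groups did not overlap, and the mean difference was -78.2 CPM. COL4A5 accounted for -53.0 CPM of this net change and COL4A6 for -18.1 CPM, or 67.8% and 23.1%. COL1A1 (-11.3 CPM) and COL12A1 (-4.97 CPM) also fell, while COL16A1 gained 6.65 CPM. With the X pair left out, the sum was 155, 129 and 122 CPM in control and 128, 128 and 129 CPM in shtRF, which overlap. The share of COL4A5 in all collagen counts was 38.2% to 41.2% in control and 27.9% to 29.5% in shtRF, and it remained the gene with the most collagen counts in every library.

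**Figure D4:**
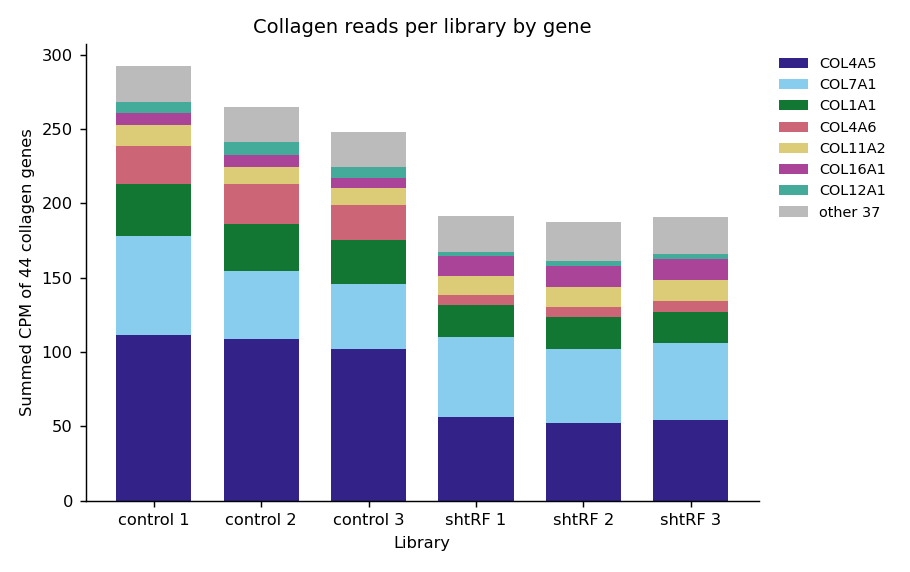
Summed CPM of the 44 collagen genes in each of the 6 libraries, as bars stacked by gene with all other collagen genes in grey. Control bars reach 248 to 293 CPM and shtRF bars 188 to 192 CPM, and the dark COL4A5 segment is the one that shrinks most.

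Of 20 listed genes for enzymes and chaperones that modify and fold procollagen, 18 were tested, and P3H2 and COLGALT2 had too few counts. Of the 18, 4 rose and 8 fell, where 20.6% of all tested genes rose and 18.9% fell, and the median log2 fold change was -0.10. SERPINH1, which encodes the collagen chaperone HSP47, had 40.1, 41.5 and 40.4 CPM in control and 17.3, 18.6 and 17.5 CPM in shtRF. No other gene of this list fell as far (log2 fold change -1.19 ± 0.06, SE, edgeR adjusted p = 1.63e-12). CREB3L1, a transcription factor of the secretory pathway known to drive COL1A1 in bone, rose from 16.4, 19.7 and 16.0 CPM to 62.2, 61.8 and 58.2 CPM (log2 fold change 1.81 ± 0.07, SE, edgeR adjusted p = 1.65e-14). The prolyl 4-hydroxylase subunit gene P4HA1 fell by 0.56 on the log2 scale (edgeR adjusted p = 1.67e-08), and its relative P4HA2 rose by 0.48 (edgeR adjusted p = 1.47e-06). P4HB, the common subunit, had a mean of 496 CPM in control and 479 CPM in shtRF and was not called (edgeR adjusted p = 0.512). The other genes of the list that rose were P4HA3 (0.45) and P3H1 (0.39 on the log2 scale). The others that fell were PLOD2 (-0.58), P3H4 (-0.45), FKBP10 (-0.38), P3H3 (-0.32), COLGALT1 (-0.20) and PLOD1 (-0.20).

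Of 19 genes for export, cleavage and crosslinking of procollagen, 12 were tested, 2 rose and 1 fell, with a median log2 fold change of -0.05, where 39.5% of all tested genes were called in either direction. MIA3, a procollagen export receptor, rose by 0.37 on the log2 scale and BMP1, a procollagen proteinase, by 0.48, while LOXL3, a lysyl oxidase relative, fell by 0.78. Exons of neighbouring genes, mainly HTRA2, cover 19.3% of the LOXL3 exons. LOX, the founding lysyl oxidase, had at most 10 counts and was not tested, and LOXL2 was at 0.525 and 0.462 CPM without a call (edgeR adjusted p = 0.722). Of 11 collagen receptor genes, 8 were tested, 3 were higher (ITGB1, DDR2 and ITGA10) and 1 was lower (MRC2), against 20.6% and 18.9% of all tested genes, and the median log2 fold change was 0.28. ITGB1, the integrin subunit shared by collagen receptors, had a mean of 182 CPM in control and 212 CPM in shtRF (log2 fold change 0.22 ± 0.05, SE, edgeR adjusted p = 0.00125). DDR1, the discoidin domain receptor of epithelia, had a mean of 92.0 and 94.0 CPM and was not called (edgeR adjusted p = 0.703), and neither was ITGA2 (log2 fold change -0.18 ± 0.08, SE, edgeR adjusted p = 0.0712). ITGA2 stayed uncalled in 14 of 17 alternative fits and was called lower in the others. DDR2, the DDR1 relative of mesenchymal cells, rose by 0.73 and ITGA10 by 1.22 on the log2 scale. MRC2, an endocytic collagen receptor, fell by 1.10 (edgeR adjusted p = 1.40e-05), with 12.6% of its exons covered by those of other genes.

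In the degradation list 8 of 15 genes were tested, 2 were higher (TIMP1 and CTSL) and 3 were lower (MMP13, MMP15 and MMP16), against 20.6% and 18.9% of all tested genes. The median log2 fold change over the 8 tested genes was -0.22. MMP13, an interstitial collagenase, had 7.98, 9.52 and 9.58 CPM in control and 3.39, 4.06 and 4.42 CPM in shtRF (log2 fold change -1.19 ± 0.12, SE, edgeR adjusted p = 4.43e-08). MMP14, a membrane-bound collagenase, was at 1.43 and 1.72 CPM and was not called (edgeR adjusted p = 0.35). MMP1, MMP2, MMP8 and MMP9 had too few counts to test. BMP1, MIA3, LOXL3, P4HA3, P3H1, PLOD2, P3H4, FKBP10, P3H3, COLGALT1, PLOD1, DDR2, ITGA10, TIMP1, CTSL, MMP15 and MMP16 were named after their values were seen.

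**Figure D5:**
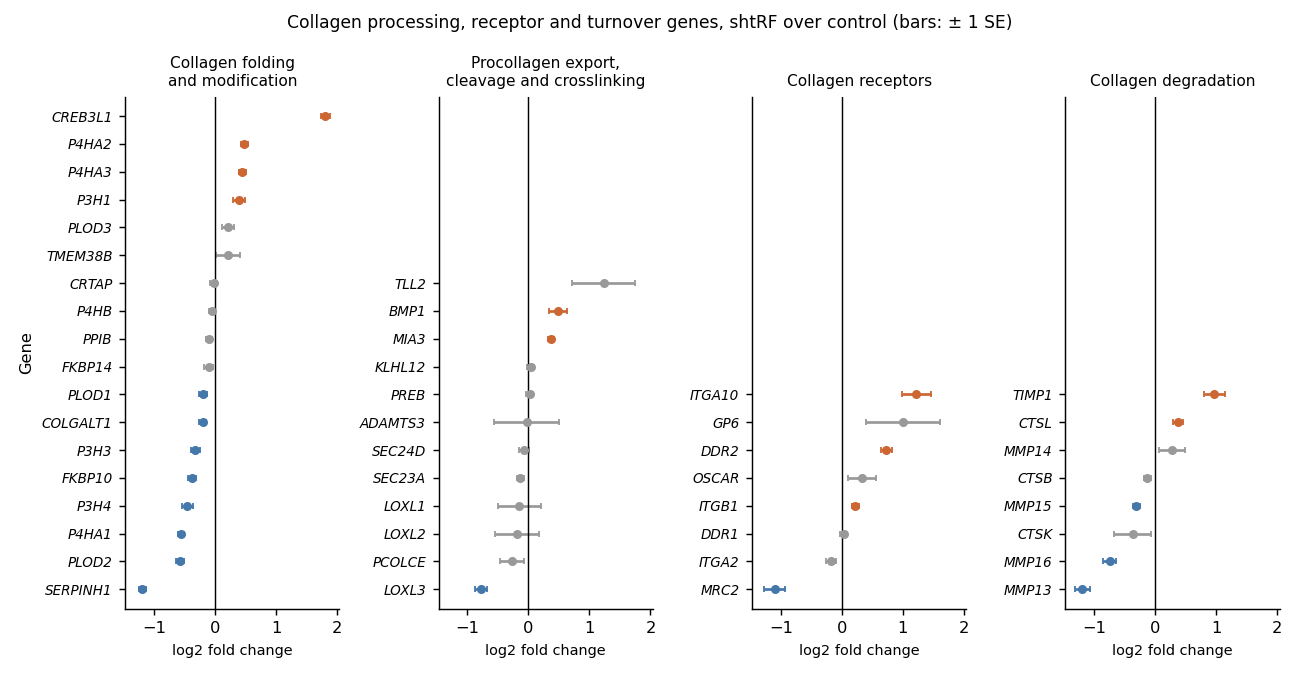
Log2 fold change of shtRF over control with ± 1 SE for the tested genes of 4 lists, with 18, 12, 8 and 8 genes from left to right (orange, higher and blue, lower with an adjusted p under 0.05; grey, not called). CREB3L1 at 1.81 and SERPINH1 at -1.19 are the outermost called genes of the first list.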

How the data were processed

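Messenger RNA of 6 MDA-MB-453 libraries, 3 control and 3 shtRF, was prepared by the authors with a stranded kit and sequenced as read pairs. The authors deposited raw read counts per gene with exon coordinates, and RPKM values. The submitters' processing notes name Trimmomatic 0.36, featureCounts, Subread 1.5.1, edgeR 3.12.1 and GRCh38. The aligner is not given in the sources used here. In each library 74.2% to 77.1% of counts of 1 to 4 were even, as when both mates are counted, so a count may stand for fewer fragments. The copy of the deposited RPKM table used here held 4997 complete genes, 8 of them collagen genes. All values of the 4991 genes matched by symbol equalled count over exonic length and library total within a relative tolerance of 0.001, and RPKM was recomputed so for all genes.

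Groups came from sample titles. Counts were tested with edgeR 4.0.16 (R 4.3.3): filterByExpr with a minimum count of 10, TMM (factors 0.961 to 1.03), and the quasi-likelihood test with group as the only term, over 19628 genes with Benjamini-Hochberg adjustment. Standard errors came from the estimate and its F statistic. Fits were tested on simulated data. Alternatives, including DESeq2 1.42.0 and limma 3.58.1, are given in the closing section.

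Collagen genes, classes and lists were chosen with earlier results of these data known. Named were all expressed or called collagen genes and, of each other list, up to 4 genes past 2-fold with a mean of at least 2 CPM, plus 10 fixed genes. The gene CTAGE5 has its own row and was not in the export list, where MIA2 was. Replicates of a group differed by more than sampling noise (chi-square per degree of freedom 5.93 to 17.2).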

Additional observations from a re-analysis of the deposited data

How the results depend on the processing

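Alternatives were another scaling (RLE or upper quartile), other filters, DESeq2, limma on log2(RPKM + 1) or log2(RPKM + 0.1), halved counts, only genes with under 10% of their exonic bases shared, and each library left out. Of 571 values of 35 named genes, 539 kept their direction and side of the threshold, 4 lost a call, 5 gained one and 23 changed sign, and 24 genes kept both throughout. The 6 collagen genes that fell stayed at 6 under every alternative except the limit on shared bases, where COL18A1 is not tested. The count that rose was 2 with a filter of 1 CPM in 3 libraries, which leaves fewer genes, and 2 on log2(RPKM + 1). At least 2 RPKM left 4 genes expressed. Export genes that rose numbered 1 on either RPKM scale and 1 to 2 with a library left out (1 without control replicate 2 or shtRF replicate 3). Those that fell were 2 with upper quartile scaling, 2 with the 1 CPM filter and 0 with the limit on shared bases, where LOXL3 is not tested. The same counts for receptors that fell were 2, 2 and 0, as MRC2 is not tested under that limit. With a library left out they were 1 to 2 (2 without control replicate 2). COL7A1, near 0, turned to -0.0023 (RLE), -0.035 (upper quartile), -0.0057 (no filter), -0.013 (10 counts in every library), -0.019 (1 CPM), -0.0041 (DESeq2), -0.027 and -0.029 (RPKM scales), -0.0093 (halved counts) and -0.0080 (shared bases). DDR1 turned to -0.0045 (upper quartile), -0.019 and -0.021 (RPKM scales). With a library left out, log2 fold changes ran from -0.10 to 0.21 for COL7A1, -1.30 to 0.11 for COL1A2, -0.19 to 0.27 for COL2A1, -0.039 to 0.20 for COL4A4, -0.24 to 0.68 for COL17A1, -0.0053 to 0.073 for DDR1 and -0.41 to 0.020 for LOXL2, none of them called with all libraries. The cause of these shifts was not tested. On log2(RPKM + 1) COL4A2 (adjusted p = 0.0997) and COL6A3 (0.215) were not called, and COL6A3 was not on log2(RPKM + 0.1) (0.0951).

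Replicate numbers did not pair the libraries: the correlation of same-numbered deviations was 0.024, -0.0015 and -0.0002. A replicate block gave 4 higher and 6 lower collagen genes, as without it, and 4123 and 3776 of all genes against 4046 and 3704. Counts limited the trace genes, and both mates of a pair may have been counted, so counts may overstate the number of fragments.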
